A study of Labrus bergylta with 25 samples.

Results

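In Segment 1 of the ballan wrasse (Labrus bergylta) intestine, 200 genes were detected in every library and still differed strongly from intestine to intestine. They were chosen from the 20208 genes listed in the in vitro table. A gene had to have a value above 5 in all 25 libraries (15540 genes) and a mean of at least 50 (13325 genes), the 100 genes with the highest mean were left out, and the 200 genes with the highest SD of log2(value + 1) among the remaining 13225 were taken. Values are read counts per gene divided by a size factor of the library, which puts libraries of different depth on 1 scale, and a deviation or difference of 1 on the log2 scale is a doubling. The SD chose the members, so their high spread is a description. The rule used no treatment label.

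Each library came from 1 intestine of a fasted juvenile, and the labels give the sex of every sample as female. Whole eviscerated intestines were flushed, given 1 bolus or left empty, and bathed in a physiological salt solution (Ringer's) for 1 h, after which the first segment was sampled. The protein group (6 libraries) received casein predigested with trypsin, together with a protease and phosphatase inhibitor, and the lipid group (6 libraries) received cod liver oil predigested with lipase, with a detergent. The cellulose group (7 libraries) received microcrystalline cellulose in water with a blue dye, which fills the gut without feeding it, and the empty group (6 libraries) received no bolus. The study set protein and lipid against cellulose to ask what nutrients do beyond stretch, and cellulose against empty to ask what stretch does. Libraries are named here by treatment and number, for example protein 33.

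The ballan wrasse has no stomach. Food passes straight into the bulbous, the widened front of the gut that is Segment 1, which holds the bolus, digests it and begins to absorb it. The wall contains absorptive and mucus-producing epithelium, smooth muscle, nerves, vessels and immune cells, and a bulk library sums the RNA of all of them, so fewer cells of a type and less RNA per cell cannot be told apart. Genes whose values rise and fall together from animal to animal are called co-variation blocks here. The identifiers in the table are not paired with gene names in the sources used here, so members are given by identifier with no role, and the tissue could not be checked against its marker genes.

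The values are whole multiples of what 1 read is worth in each library, and the totals recovered from them ran from 10.2 to 31.6 M reads with a median of 13.9 M. These totals hold only reads counted in the listed genes and are not the sequenced library sizes. Depth of a library means this total here. At this depth counting error was a small part of the members' spread: the SD expected from counting alone had a median of 0.16 on the log2 scale, against a median total SD of 1.48, and counting accounted for a median of 0.968% of a member's variance.

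The rule's floors kept rare transcripts out, so the abundance of the members is a description. A mean can rest on a few high libraries, as in LABE_00083736-RA (mean 172, median 17.7). The members' mean values had a median of 286 and ranged from 50.4 to 14580, beside a median of 311 for the other 13025 genes that met the same floors. Within 1 gene, the highest library had a median of 51.9 times the value of the lowest library, with a range over members of 15.8 to 866 times. The median was 2.44 times for the other genes, a distance that follows from the choice by SD. The rule's boundary fell in a continuous range of SDs: the last gene inside, LABE_00023322-RA, had an SD of 1.247 and the first gene outside, LABE_00019522-RA, an SD of 1.247, equal at this rounding.

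The most variable member was LABE_00032935-RA, with an SD of 3.49. Its values in the protein libraries were 27167, 241, 429, 16010, 19498 and 43829 for libraries 10, 11, 20, 22, 32 and 33. The lipid libraries 9, 14, 18, 21, 28 and 29 had 136, 44476, 4496, 10987, 249 and 10002. In cellulose library 13 the value was 88807, the highest of all 25, and the other 6 cellulose libraries ran from 107 to 227. The empty libraries 12, 15, 19, 24, 26 and 30 had 39515, 24198, 135, 25498, 1499 and 1494. High and low libraries stood side by side in all 4 treatments, and only cellulose had a single high library.

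Treatment accounted for little of this spread. The share of a gene's variance that lay between the 4 treatment means had a median of 11.4% over the 200 members, with quartiles of 6.38% and 17.3% and a range of 0.204 to 44.2%. The 4 groups take 3 of the 24 degrees of freedom, so 12.5% is the share they hold on average when no treatment has an effect. This 12.5% is a mean, and the mean share was 13.1% in the members and 13.9% in the other genes. Medians of these skewed shares lie lower and cannot be set against it. The other 13025 genes had a median share of 11.8%. After allowing for the degrees of freedom, the adjusted share had a median of -1.28% in the members and -0.83% in the other genes. Its mean was 0.72% in the members and 1.58% in the other genes. It was above 0 in 94 members (47%), beside 47.2% of the other genes. Shares over 25% were found in 19 members (9.5%), beside 14.1% of the other genes.

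**Figure D1:**
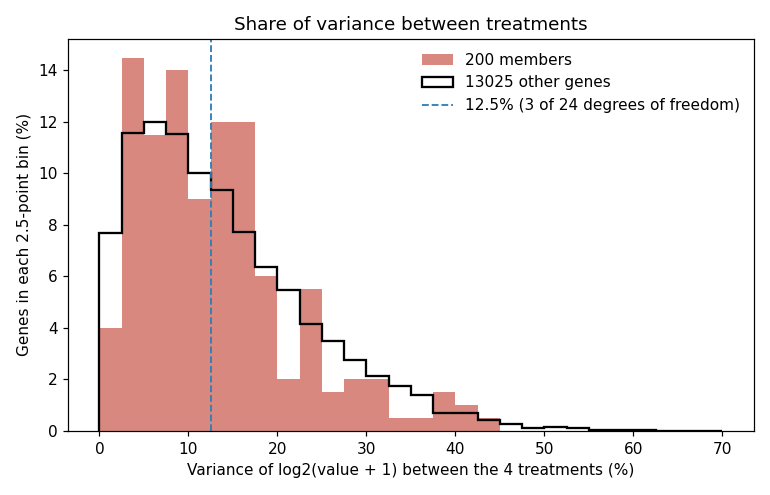
The plot of the variance between treatments shows, for 200 members (filled) and 13025 other genes (line), the percentage of genes in each bin of the share of variance of log2(value + 1) that lies between the 4 treatments. The dashed line at 12.5% is the mean share without any effect. The means were 13.1% in the members and 13.9% in the other genes, and the medians were 11.4% and 11.8%.

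The remaining spread was between intestines of the same treatment. The within-treatment SD of the members had a median of 1.49 in protein, 1.46 in lipid, 1.34 in cellulose and 1.52 in empty intestines, beside 0.29, 0.30, 0.26 and 0.32 for the other genes in the same 4 groups. Members were chosen by their total SD, so this distance from the other genes follows from the rule. Of the 200 members, 70 had their lowest within-treatment SD in cellulose, against 38 in protein, 54 in lipid and 38 in empty intestines. Cellulose was the group of 7 libraries, and the spreads of the groups were not compared by a test. No single intestine carried the spread. An even share would be 4% of the members' sum of squares per library. The largest shares were 6.07% in protein 33, 5.48% in empty 24 and 5.14% in lipid 29, and protein 33 was the farthest library from the mean in 28 members.

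With this spread between intestines, contrasts on single members had wide intervals. A linear model with moderated variances (limma, 4 treatments in 1 fit, 19033 genes tested, all 200 members among them) gave a median standard error of 0.79 on the log2 scale for contrasts of members with cellulose, against 0.17 for the other genes. The 95% interval of a member therefore extended a median of 1.63 log2 units to either side. The choice by SD makes standard errors of members larger than those of other genes. No member passed an adjusted p of 0.05 (Benjamini-Hochberg over all genes tested by limma) in the test over the 4 treatments or in any of the 6 contrasts. Over all genes tested, 3 genes (0.0158%) passed it in protein versus empty, and none passed it in the other contrasts or over the 4 treatments. At an unadjusted p under 0.05, limma called 14 members over the 4 treatments, 18 in protein versus cellulose, 18 in lipid versus cellulose, 11 in protein versus empty, 9 in lipid versus empty, 12 in cellulose versus empty and 8 in protein versus lipid. The corresponding background over all genes tested was 7.28%, 10.2%, 5.91%, 9.81%, 4.74%, 5.18% and 2.47%, in the same order, and the members' shares were 7%, 9%, 9%, 5.5%, 4.5%, 6% and 4%.

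The study applied its threshold of an unadjusted p under 0.01 to DESeq2 tests, and here it was first applied to the limma p-values. By limma, 4 of the 200 members (2%) were called over the 4 treatments, beside 1.60% of all genes. In protein versus cellulose 4 members (2%) were called beside 2.72% of all genes, 1 of them higher (beside 1.32% of all genes) and 3 lower (beside 1.40%). In lipid versus cellulose 3 members (1.5%) were called beside 1.09% of all genes, 1 higher (beside 0.499%) and 2 lower (beside 0.594%). In protein versus empty 1 member (0.5%) was called beside 2.77% of all genes, with 0 higher (beside 1.27%) and 1 lower (beside 1.50%). In lipid versus empty 2 members (1%) were called beside 0.788% of all genes, with 0 higher (beside 0.504%) and 2 lower (beside 0.284%). In cellulose versus empty 4 members (2%) were called beside 0.919% of all genes, 1 higher (beside 0.552%) and 3 lower (beside 0.368%). In protein versus lipid 3 members (1.5%) were called beside 0.447% of all genes, 2 higher (beside 0.152%) and 1 lower (beside 0.294%). In all 6 contrasts the count of members was 4 or fewer of 200. These are 17 calls on 12 distinct members, and in 3 of the calls the values of the 2 groups did not overlap. Overlap was not worked out for the other genes, so these 3 have no background share and nothing is read from their number. The contrasts share groups, so their calls are not independent.

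The counts depended on the tool. On the recovered reads of all 25 libraries, edgeR's quasi-likelihood test called 6 members over the 4 treatments at an unadjusted p under 0.01 (3% of members, beside 1.92% of all genes) and 8 in protein versus cellulose (4% beside 3.04%). By the edgeR adjusted p under 0.05, 1 member was called over the 4 treatments (0.5% beside 0.00525% of all genes, which is that 1 gene), 1 in protein versus empty (0.5% beside 0.0315%) and 0 in the other 5 contrasts. DESeq2 called 14 members over the 4 treatments at the unadjusted threshold (7.04% of those tested, beside 3.21% of all genes) and 14 in protein versus cellulose (7.04% beside 4.05%). By the DESeq2 adjusted p under 0.05 it called 2 members over the 4 treatments (1.01% beside 0.368%), 3 in protein versus cellulose (1.51% beside 0.289%) and 4 in protein versus empty (2.01% beside 0.431%). It called 1 each in lipid versus empty (0.503% beside 0.0105%), cellulose versus empty (0.503% beside 0.0263%) and protein versus lipid (0.503% beside 0.0158%), and 0 in lipid versus cellulose, where 0.0158% of all genes were called.

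LABE_00022280-RA was the 1 member that edgeR called by adjusted p on 25 libraries, at 0.00459 over the 4 treatments and 0.0436 in protein versus empty. Its values ran from 89.5 to 209 in protein, from 101 to 244 in lipid and from 116 to 189 in cellulose intestines, and the empty libraries 12, 15, 19, 24, 26 and 30 had 169, 179, 403, 234, 9580 and 9686. Only empty 26 and empty 30 were above 403. DESeq2 on 25 libraries also called this gene, with DESeq2 adjusted p of 1.4e-10 over the 4 treatments and 3.32e-06 in protein versus empty. It was the 1 member that DESeq2 called in lipid versus empty (DESeq2 adjusted p of 1.97e-05) and in cellulose versus empty (2.02e-05). Limma called it at an unadjusted p under 0.01 in protein, lipid and cellulose versus empty. The edgeR fit made first, on 23 libraries, called 1 member over the 4 treatments by adjusted p (0.5% beside 0.00525% of all genes). In protein versus empty that fit called 0 members and 0 of all genes. LABE_00083736-RA, called by DESeq2 over the 4 treatments (DESeq2 adjusted p of 4.95e-05), had 3463, 195, 17.95, 21.3, 52.4 and 48.7 in protein libraries 10, 11, 20, 22, 32 and 33. Its values in the other treatments ran from 11.54 to 75.2 in lipid, from 7.14 to 126 in cellulose and from 9.48 to 36.7 in empty intestines. Protein 10 alone was far above the rest. DESeq2 also called LABE_00083736-RA in protein versus cellulose (DESeq2 adjusted p of 0.00986) and protein versus empty (0.00131). In protein versus lipid it was the 1 member that DESeq2 called (DESeq2 adjusted p of 0.0391). By DESeq2 adjusted p on 25 libraries, the other members called in protein versus cellulose were LABE_00024776-RA (0.029) and LABE_00031915-RA (0.0494). Those in protein versus empty were LABE_00054882-RA (0.0344) and LABE_00064509-RA of block C (0.0268). LABE_00031915-RA had 17 libraries from 28.7 to 792 and 8 libraries from 2647 to 4037. Those 8 were 0 protein, 1 lipid, 4 cellulose and 3 empty libraries. Apart from LABE_00024776-RA, the members in this paragraph were named after their values were seen.

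Among the members called in protein versus cellulose, LABE_00024776-RA had values of 29.7 to 540 with a median of 56.4 in the protein libraries, against 6.76 to 20.9 with a median of 18.3 in the cellulose libraries. The groups did not overlap. The log2 difference was 2.63 ± 0.87 (SE), with a limma p of 0.00608 and an adjusted p of 0.349. Its unadjusted p moved above 0.01 when protein 22, protein 32, cellulose 16, cellulose 17 or cellulose 23 was left out, with differences of 2.12 to 2.59. DESeq2 on the recovered reads of 25 libraries called LABE_00024776-RA in this contrast, with a DESeq2 adjusted p of 0.029.

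LABE_00033272-RA lay on the other side, with 15.3 to 130 and a median of 71.0 in the protein libraries, against 134 to 400 and a median of 251 in the cellulose libraries. Every protein library was below every cellulose library, and the log2 difference was -2.11 ± 0.58 (SE), with a limma p of 0.00126 and an adjusted p of 0.290. LABE_00084097-RA had 6.82 to 478 with a median of 118 in protein, against 291 to 548 with a median of 421 in cellulose, so the groups overlapped. Its log2 difference was -2.74 ± 0.77 (SE) by limma, with p of 0.00166 and an adjusted p of 0.316, and the edgeR and DESeq2 differences on recovered reads were smaller, at -1.22 and -1.24, and missed the unadjusted threshold. LABE_00070293-RA, the second member on the higher side, had 37.4 to 863 in protein, against 8.36 to 363 in cellulose, a difference of 3.02 ± 1.09 (SE) that did not reach the limma threshold (p of 0.0109, adjusted p of 0.371). Without each library in turn, that difference ran from 2.70 (protein 20 left out) to 3.59 (protein 10 left out). Its result was stronger in 11 of the alternative settings and the same in 31. The same gene was called in cellulose versus empty, with medians of 27.4 in cellulose and 648 in empty intestines. That log2 difference was -3.68 ± 1.09 (SE), with a limma p of 0.00259 and an adjusted p of 0.924, and the groups overlapped.

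The largest share of variance between treatments, 44.2%, belonged to LABE_00064521-RA. Its values were 832, 481, 722, 176, 140 and 409 in protein libraries 10, 11, 20, 22, 32 and 33. The lipid libraries 9, 14, 18, 21, 28 and 29 had 40.1, 31.1, 49.96, 80.7, 29.4 and 170. The cellulose libraries ran from 30.9 to 608 with a median of 294, and the empty libraries from 36.9 to 882 with a median of 228. Lipid intestines were low, and the highest lipid library overlapped the lowest protein library. Protein minus lipid was 2.78 ± 0.69 (SE) on the log2 scale, with a limma p of 0.000532 and an adjusted p of 0.9998. Lipid minus cellulose was -2.09 ± 0.66 (SE), with a limma p of 0.00460 and an adjusted p of 0.828. Lipid minus empty was -1.94 ± 0.69 (SE), with a limma p of 0.00980 and an adjusted p of 0.987.

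Part of the members co-varied in blocks. Over the 19900 pairs of members, Pearson's r across the 25 libraries had a median of 0.00, and 135 pairs were above 0.8. Average linkage on 1 - r, with the tree divided at a height of 0.5, gave 9 blocks of at least 5 members, here A to I by size, which held 64 members (32%). The number of blocks depended on the setting, with 6 at a height of 0.4 and 11 at a height of 0.6. Only block A was followed through the settings. Of the other 136 members, 87 fell in 36 clusters of 2 to 4 and 49 stood alone. Of the 135 pairs above 0.8, 128 lay inside 1 block and 92 inside block A. The blocks differed in tightness, with a mean pairwise r from 0.59 in block E to 0.96 in block F. The lowest r of a pair inside 1 block was 0.32, in block A. The blocks were built from these values, and the correlations inside them are a description with no test. All points come from the same 25 libraries.

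**Figure D2:**
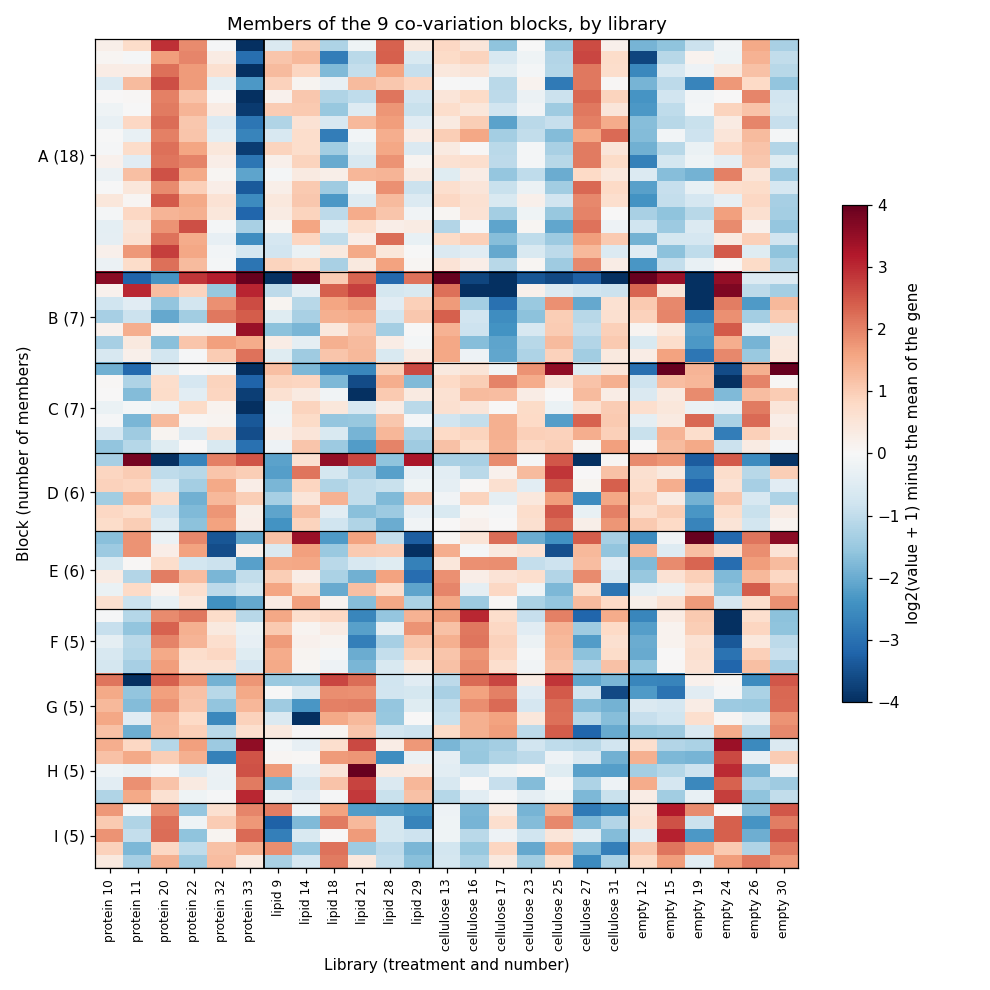
The heat map shows log2(value + 1) of each of the 64 members in blocks, minus the gene's mean over 25 libraries (colour, from -4 to 4), with 1 row per member and 1 column per library, ordered by treatment. Members of block A are low together in protein 33 and high in protein 20 and cellulose 27, and high and low columns occur within every treatment.

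Block A was the largest, with 18 members, a mean pairwise r of 0.80 and mean values from 66.1 to 14270. Its block mean, the average log2 deviation of its members, was lowest in protein 33 (-2.92) and highest in protein 20 (2.18), a range of 34.2-fold between 2 intestines of the same treatment. The member closest to the rest of the block was LABE_00020613-RA (r of 0.97 with the mean of the others). It had 3239, 5560, 15468, 9944, 4586 and 237 in protein libraries 10, 11, 20, 22, 32 and 33. In the lipid libraries it ran from 1280 to 9746, in the cellulose libraries from 1360 to 14017 and in the empty libraries from 885 to 7354. The 4 treatments overlapped, and 5.81% of the variance of the block mean lay between them. Subtracting the treatment means left the mean pairwise r at 0.82, and the same 18 members stayed together without each library in turn. Outside the members, 22 genes followed the block mean with r of at least 0.8.

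Block F was the tightest, with 5 members and a mean pairwise r of 0.96. The pair LABE_00042040-RA and LABE_00001300-RA had the highest r of all member pairs, 0.98. The block mean was lowest in empty 24 (-3.91) and highest in cellulose 16 (2.17), a range of 68.0-fold. LABE_00001300-RA had 762 to 4773 in protein, 420 to 4653 in lipid, 543 to 5705 in cellulose and 217 to 3270 in empty intestines. All 4 ranges overlapped, and 15.3% of the variance of the block mean lay between treatments.

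Blocks C (7 members) and H (5 members) were near mirror images. Their block means had r of -0.94 over 25 libraries (Spearman's rho -0.88), and 8 of the 9 member pairs with r under -0.8 joined a member of C to a member of H. The same 3 intestines lay at the far end of both: protein 33, lipid 21 and empty 24 had block C means of -3.92, -2.49 and -2.17, and block H means of 2.74, 2.90 and 2.84. Each of the 3 came from a different treatment. The members of both blocks held together more loosely without them, with a mean pairwise r of 0.46 in place of 0.65 in C and of 0.40 in place of 0.69 in H, and the r between the block means was -0.89 over the remaining 22 libraries. The depth of protein 33 was the highest of all, 31.6 M reads, that of empty 24 was 15.98 M and that of lipid 21 was 13.8 M. The part of depth in this pattern was not tested.

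LABE_00031126-RA of block H had 537.1 in protein 33, 466.2 in lipid 21 and 453.0 in empty 24, against 17.8 to 189 with a median of 51.4 in the other 22 libraries. LABE_00061667-RA of block C had 9.27, 32.3 and 16.8 in the same 3 intestines, against 43.9 to 330 with a median of 189 in the other 22. All 5 members of block H and 3 of the 7 of block C had all 3 intestines outside the range of the others. The 3 intestines were picked as the ends of the means of these same members, so this follows in part from the choice. It is a description, with no share over all genes beside it. Over all 25 libraries, these 2 blocks were the ones most widely shared beyond the members. With block C, 124 other genes had r of at least 0.8 and 96 had r of -0.8 or lower, and the counts for block H were 88 and 66. The counts include the 3 far intestines and were not repeated without them. Because the 2 block means mirror each other, the same genes can stand in the counts of both.

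**Figure D3:**
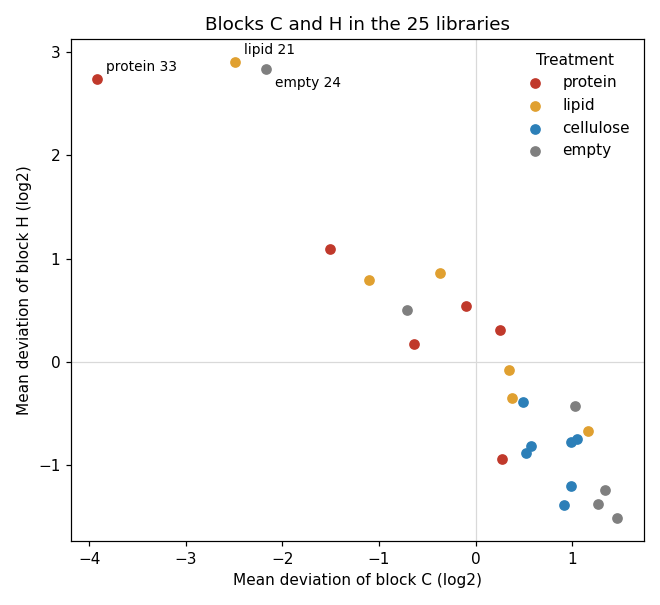
The scatter of blocks C and H shows the mean log2 deviation of block H against that of block C, 1 point per library (n = 25), coloured by treatment. Protein 33, lipid 21 and empty 24 sit at the upper left with block H means of 2.74, 2.90 and 2.84, and the 7 cellulose libraries sit close together at the lower right.

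The cellulose intestines were alike in these 2 blocks. The block C mean was -0.94 ± 1.60 in protein, -0.35 ± 1.30 in lipid, 0.79 ± 0.25 in cellulose and 0.37 ± 1.48 in empty intestines (mean ± SD, n = 6, 6, 7 and 6). The highest protein library, at 0.27, lay below the lowest cellulose library, at 0.49. Among all pairs of treatments in the 9 blocks, only this pair did not overlap, and it was not tested. The block H mean was 0.65 ± 1.22 in protein, 0.58 ± 1.29 in lipid, -0.88 ± 0.32 in cellulose and -0.20 ± 1.67 in empty intestines. The share of variance between treatments was 25.6% for C and 25.3% for H, and none of the 3 far intestines was a cellulose intestine. LABE_00033272-RA and LABE_00061667-RA, members of block C, were 2 of the 3 members called lower in protein than in cellulose. Both enter the block C mean, so their calls and the distance between the block means are not separate observations. For LABE_00061667-RA the values were 9.27 to 185 with a median of 78.7 in protein, against 211 to 330 with a median of 235 in cellulose, with no overlap and a log2 difference of -1.97 ± 0.64 (SE; limma p of 0.00509, adjusted p of 0.337).

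One member of block C rested mainly on a single intestine. LABE_00075742-RA had 20.9 in protein 33, against 1621 to 3344 in the other 5 protein libraries, 930 to 3614 in lipid, 1647 to 4020 in cellulose and 1555 to 8263 in empty intestines. Protein 33 supplied 78.6% of its sum of squares. Over all members the largest share of 1 library had a median of 19.3%, and it passed 50% in 6 members.

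Block I (5 members) had the highest share of variance between treatments of the block means, 27.8%. The block mean was 0.51 ± 1.29 in protein, -0.52 ± 1.19 in lipid, -0.80 ± 1.23 in cellulose and 0.95 ± 1.36 in empty intestines (mean ± SD, n = 6, 6, 7 and 6), and it ran from -1.89 in cellulose 31 to 2.52 in empty 15. The ranges of the 4 groups overlapped. Its representative, LABE_00090988-RA, had medians of 317 in protein, 70.0 in lipid, 68.3 in cellulose and 441 in empty intestines, and its values ran from 15.4 to 906. LABE_00082448-RA, another member of the block, was called in cellulose versus empty, with 34.5 to 336 and a median of 83.4 in cellulose, against 146 to 873 and a median of 638 in empty intestines. The log2 difference was -2.10 ± 0.63 (SE; limma p of 0.00280, adjusted p of 0.924).

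Block B (7 members, mean pairwise r 0.70) contained LABE_00032935-RA, the member with the highest SD. Its block mean ran from -3.39 in empty 19 to 2.78 in protein 33, a range of 72.1-fold. LABE_00028880-RA, its representative, had 3437 to 25857 in protein, 2129 to 14138 in lipid, 1355 to 16862 in cellulose and 767 to 21480 in empty intestines. The lowest and the highest library of the block belonged to different treatments, but every treatment held libraries above and below 0, and 9.97% of the variance of the block mean lay between treatments. Blocks B and H had r of 0.62 between their means, and blocks B and C r of -0.66 (n = 25 libraries each).

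Blocks D (6 members) and E (6 members) also ran in opposite directions, with r of -0.66 between their means. Block D was lowest in empty 19 (-2.69) and highest in cellulose 25 (2.37), and block E was lowest in lipid 29 (-2.77) and highest in empty 19 (1.89). Empty 19, empty 30 and cellulose 27 had the most listed genes with a value of 0, at 803, 1003 and 659. The next was lipid 21, with 355. These libraries were among the far ends of several blocks, and the part of missing genes in the blocks was not tested. The share of variance between treatments was 6.995% for D and 6.57% for E. LABE_00056301-RA of block D ran from 1084 to 30514 over the empty and cellulose intestines that held its extremes, and LABE_00025919-RA of block E from 8.88 in a protein intestine to 2461 in an empty one.

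Block G (5 members, mean pairwise r 0.79) had the smallest share between treatments of all 9 block means, 3.09%. Its lowest and highest libraries were both cellulose intestines, cellulose 31 (-2.22) and cellulose 25 (2.43). No gene outside the members had r of 0.8 or more with its mean, and the highest r outside was 0.65. LABE_00070414-RA, its representative, had 10 libraries from 1136 to 2383 and 15 libraries from 9.77 to 411, with nothing between.

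**Figure D4:**
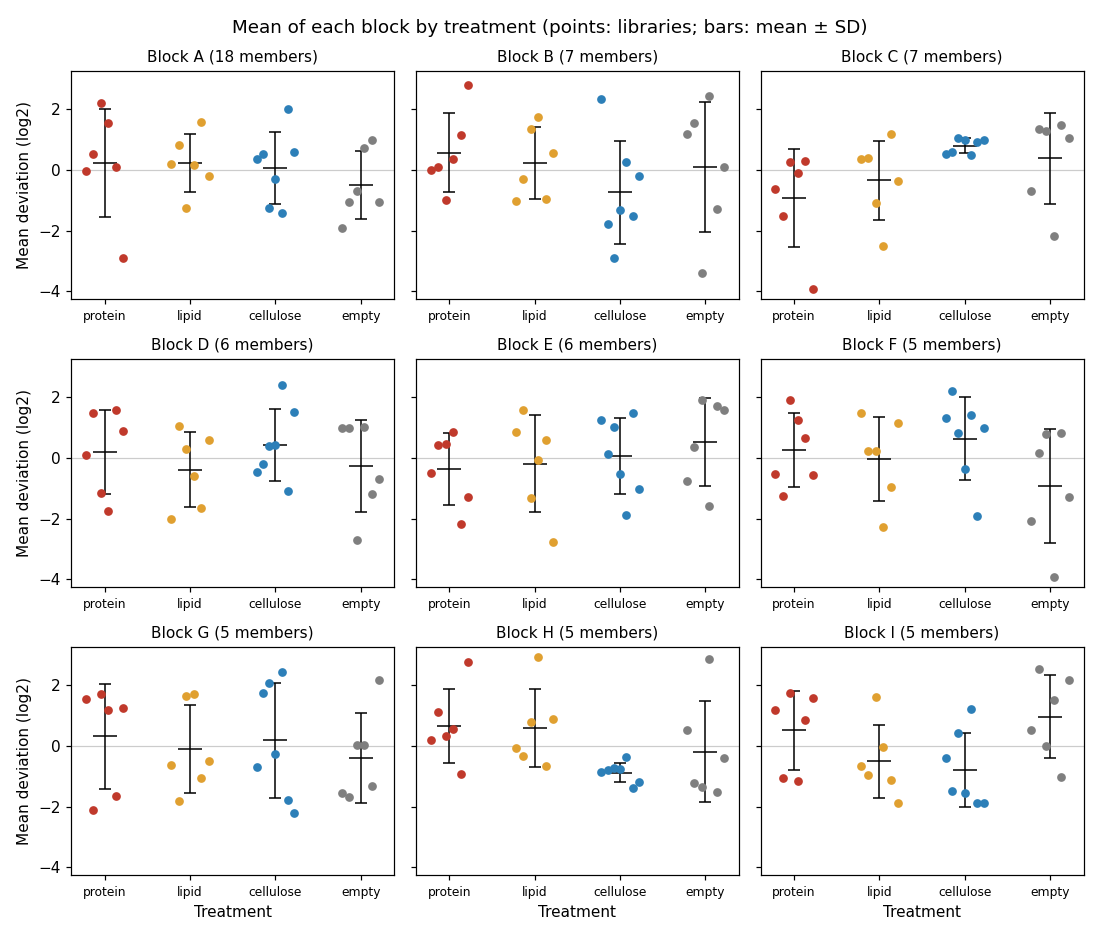
The plot of block means shows the mean log2 deviation of the members of each block in every library (points), with the mean and SD of each treatment (bars; n = 6 protein, 6 lipid, 7 cellulose and 6 empty libraries). Apart from protein and cellulose in block C, every pair of treatments overlaps in every block, and the cellulose libraries are narrowest in block C (SD 0.25) and block H (SD 0.32).

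Taking all members together, the first 5 principal components held 14.7%, 9.90%, 7.60%, 6.42% and 5.80% of the variance. Of each component, 10.4%, 7.66%, 33.6%, 14.4% and 15.8% lay between treatments, in the same order. The third component had the highest share, and the first 2 were below the 12.5% of the degrees of freedom. Members in blocks had a median share between treatments of 13.1%, and members outside blocks 11.1%.

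Separately from the blocks, 33 members fell into a high and a low set of libraries with an empty gap of at least 1 log2 unit and at least 5 libraries on each side. This threshold was chosen after the values were seen. The same gap was found in 2 of the 13025 other genes, whose lower SD leaves less room for it. Of the 33 members, 21 had both high and low libraries in all 4 treatments and 9 in 3 treatments. The median share of variance between treatments was 12.9%, and 9 of the 33 belonged to blocks.

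The widest gap was in LABE_00063069-RA, where 11 libraries had values from 86.8 to 221 and 14 libraries from 2541 to 6202, an empty interval of 11.4-fold. The high set held 4 of 6 protein, 3 of 6 lipid, 5 of 7 cellulose and 2 of 6 empty libraries. LABE_00067604-RA divided the 25 libraries in exactly the same way. LABE_00058131-RA had 14 libraries from 11.1 to 57.1 and 11 libraries from 622 to 1750, and its high set held 4 protein, 2 lipid, 2 cellulose and 3 empty libraries. In LABE_00054882-RA, 18 libraries had 13.6 to 72.6 and 7 had 411 to 2698, and the high set held 0 protein, 2 lipid, 2 cellulose and 3 empty libraries. These 3 genes were named for their gaps after the values were seen.

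**Figure D5:**
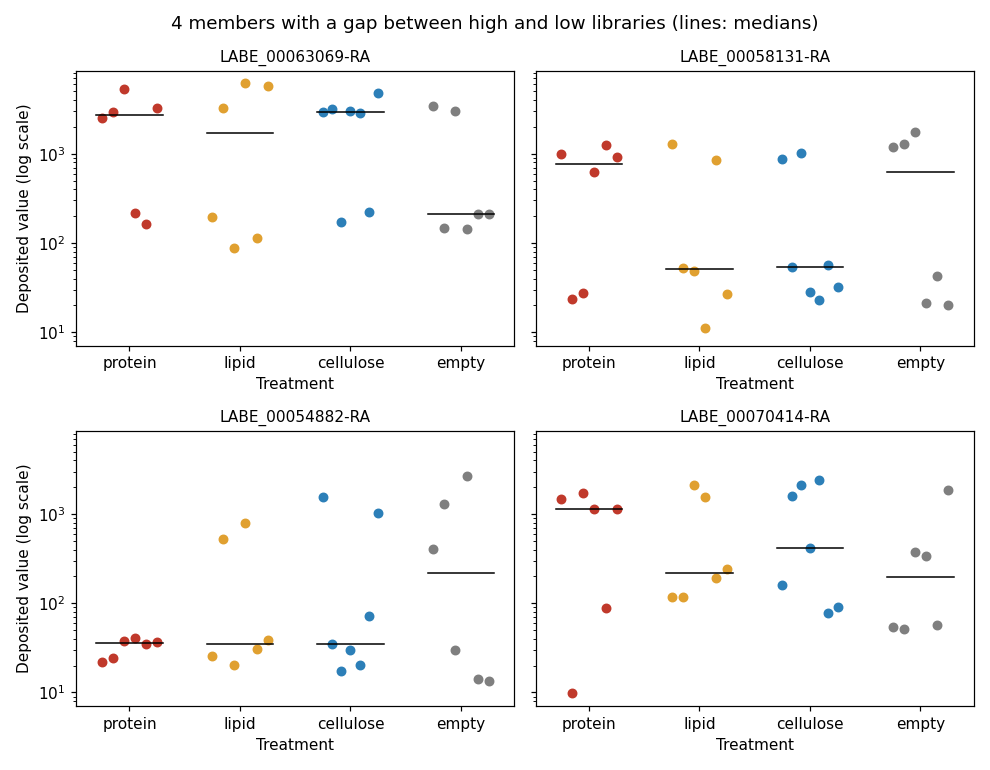
The plot of split members shows the deposited value of LABE_00063069-RA, LABE_00058131-RA, LABE_00054882-RA and LABE_00070414-RA in every library (points, log axis) by treatment, with the median of each treatment as a line. High and low libraries stand apart within treatments, with an empty interval of 11.4-fold in LABE_00063069-RA.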

How the data were processed

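Segment 1 RNA was sequenced as stranded single-end libraries. Per the labels and the study's methods, the authors trimmed reads with Trim Galore 0.4.2, aligned them with HISAT2, counted them per gene with featureCounts and divided the counts by DESeq2 size factors. The deposited values are thus a normalised signal: whole reads were recovered in 25 of 25 libraries, where 100% of values fell within 0.1 read of a whole number. The labels give each library its own number, and p-values measure the spread between single intestines.

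The members and lists were chosen with earlier results of these data known. Differences were tested by limma 3.58.1 (R 4.3.3, moderation with trend and robust) on log2(value + 1), a scale that understates changes of low genes, for genes exceeding 10 in 5 or more libraries, with Benjamini-Hochberg adjustment over 19033 genes. The script was tested on simulated data. Variance shares are between-group over total sums of squares. Alternatives used other pseudocounts, filters, scalings and member lists, each library left out, edgeR 4.0.16 and DESeq2 1.42.0 on recovered reads, first on 23 libraries without the 2 whose size factor is within 1% of 1 (lipid 21 and empty 19), then on all 25. The fit on 25 was added after seeing the data. Named members were each block's closest member to the mean of the rest, the 2 smallest p-values in each direction in protein versus cellulose, and the extremes of SD, treatment share and single-library share. The representatives of blocks G to I, the other called or paired members and the split members were named after their values were seen.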

Additional observations from a re-analysis of the deposited data

Results flagged for a closer look

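In groups of 6 or 7 libraries, 120 sets of log2 values or block means were examined for a highest or lowest library set apart by a wide gap, and 4 showed one. Chance gives such a gap in about 1 in 20 groups that were not picked by their values. Many of these sets were picked so: LABE_00032935-RA was named for its SD and LABE_00075742-RA for its single-library share. Block means and their members also repeat each other, so the 4 cannot be set against that rate. LABE_00020613-RA of block A was at 7.89 in protein 33, with the next protein library at 11.66. LABE_00075742-RA of block C was at 4.45 in protein 33, with the next protein library at 10.66. LABE_00064521-RA was at 5.00 in cellulose 23, with the next cellulose library at 7.60. LABE_00032935-RA was at 16.44 in cellulose 13, with the next cellulose library at 7.83.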

How the results depend on the processing

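The median share of variance between treatments stayed within 10.98 to 12.87% without each library in turn and was 13.6% without protein 33, lipid 21 and empty 24, a set chosen after seeing the data. With fewer libraries, the 3 degrees of freedom of treatment are a larger part of the total. The mean share without any effect is then higher, so the 13.6% cannot be set directly against the share over 25 libraries. The members in blocks numbered 57 to 71 without each library and 44 to 88 under the other alternatives, against 64. In place of 9 blocks there were 6 by Spearman's rho, at a height of 0.4, by complete linkage or with treatment means subtracted. There were 7 without empty 19 and 11 at a height of 0.6. Counts of members called at p under 0.01 moved more, and the causes were not tested; the share of all genes tested that passed follows each count in parentheses. Over the 4 treatments the 4 members (1.60%) became 7 without robust moderation (1.67%), 7 without the 3 libraries (1.48%), 9 by edgeR on 23 libraries (1.70%), and 17 and 14 by DESeq2 on 23 and 25 libraries (3.18% and 3.21%). For protein versus cellulose, 4 (2.72%) became 7 without robust moderation (2.71%), 7 in a fit of the 2 groups (3.73%), 11 and 8 by edgeR on 23 and 25 libraries (3.63% and 3.04%), and 14 by DESeq2 on either (4.83% and 4.05%). For lipid versus cellulose, 3 (1.09%) became 7 with 2 groups (1.52%), 7 by edgeR on 25 (1.26%), 6 and 11 by DESeq2 on 23 and 25 (0.973% and 1.71%), and 6 without the 3 libraries (0.631%). For protein versus empty, 1 (2.77%) became 0 with 2 groups (1.61%), 6 by edgeR on either (2.46% and 2.96%), 7 and 11 by DESeq2 on 23 and 25 (3.37% and 3.93%), and 7 without the 3 libraries (2.96%). For lipid versus empty, 2 (0.788%) became 1 with TMM (0.841%), upper quartile scaling (0.804%) or 2 groups (0.541%), 4 by edgeR on 25 (0.814%), and 8 and 5 by DESeq2 on 23 and 25 (1.06% and 1.04%). For cellulose versus empty, 4 (0.919%) became 7 by edgeR on 23 (0.935%), and 9 and 10 by DESeq2 on 23 and 25 (1.38% and 1.24%). For protein versus lipid, 3 (0.447%) became 1 by limma on 23 (0.567%), and 8 and 5 by DESeq2 on 23 and 25 (0.968% and 0.726%). Other member lists leave the share of all genes as it is: the 100 genes of highest SD gave 2 over the 4 treatments and 2 in protein versus cellulose, and ranking by median absolute deviation gave 7 over the 4 treatments and 5 in protein versus empty. The 400 genes of highest SD gave 13 over the 4 treatments, 10 in protein versus cellulose, 7 in lipid versus cellulose, 10 in protein versus empty, 6 in lipid versus empty, 8 in cellulose versus empty and 8 in protein versus lipid. Counts over 100 or 400 genes cannot be set directly against counts over 200 members, because the lists differ in size.

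Without each library in turn the counts ran from 1 (lipid 14 or cellulose 31 left out) to 8 (empty 24) over the 4 treatments, 4 to 10 (cellulose 13) in protein versus cellulose, 2 to 6 (empty 24) in lipid versus cellulose, 1 to 5 (empty 24) in protein versus empty, 0 (lipid 21 or empty 26) to 3 in lipid versus empty, 3 to 6 in cellulose versus empty and 1 (lipid 21) to 4 in protein versus lipid. The share of all genes called in each of these fits is not set beside the counts. A change particular to the members can therefore not be read from them. No paired analysis was possible because the labels give every library a number of its own. The 95% interval of a member's difference from cellulose extended a median of 1.63 log2 units to either side, and less in members with smaller spread, which limits the size of difference that single members can show.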

Other observations

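The members lay unevenly along the numbering of the identifiers. The number in the identifier was 60000 or more in 119 members (59.5%), against 15.5% of the other 13025 genes, and all 5 members of block G, all 5 of block I and 22 of the 33 split members had such numbers. Blocks F and H had none. What the numbering follows is not given in the sources used here. Among the members, 7 pairs had identifier numbers at most 5 apart. LABE_00043378-RA and LABE_00043379-RA, both outside the blocks, had r of 0.95 over the 25 libraries, and LABE_00061240-RA and LABE_00061244-RA, both in block A, had r of 0.90. The other 5 pairs had r from -0.27 to 0.75. Whether reads are shared between the genes of these pairs was not tested.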
